A study of Homo sapiens with 4 samples.

Results

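BRPF3 peaks were described at 10 immediate early genes of RKO cells, an established human colon carcinoma line: EGR1, EGR2, FOS, FOSL1, JUN, JUNB, ATF3, IER2, IER3 and DUSP1. The genes have 11 start sites in the hg19 build, because ATF3 has a distal and a proximal one. A peak belonged to a start site when its nearest base lay within 5 kb of it. This gave 34 of the 38123 peaks in 3 lists, namely 11 of 13160 in asynchronous cells, 13 of 11532 in mimosine cells and 10 of 13431 in cells given hydroxyurea (HU). The genes were chosen with the peak lists known, so the presence of peaks at them is a description.

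The series mapped BRPF3 by chromatin immunoprecipitation and sequencing with a rabbit antibody that the labels call homemade, while one of their description fields names BRPF1/2. Asynchronous cells were untreated, mimosine cells were held in 0.5 mM mimosine for 22 h, and HU cells had the same mimosine treatment, a release of 3 h and then 3 mM HU for 1 h 30 min. The other library held rabbit IgG from the HU condition, and all 3 lists name it as their control. Each condition had 1 library of 1 line, so no value has a replicate, no test between conditions was made, and differences describe these libraries.

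Immediate early genes are switched on within minutes of a growth factor or stress signal, without new protein synthesis. Many of them encode transcription factors. EGR1 and EGR2 are zinc-finger factors, and FOS and JUN proteins pair to form AP-1. DUSP1 is a phosphatase that switches off the MAP kinases which induce the family. BRPF3 is a scaffold subunit of histone acetyltransferase complexes of the MYST family. Mimosine blocks entry into DNA replication, and HU starves replication forks of nucleotides.

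The score deposited with each peak reads as 10 times the negative base-10 logarithm of the peak caller's p-value, with 50 as the lowest value in the asynchronous and HU lists and 50.01 in the mimosine list. It is the authors' own value. Scores were not compared between lists, and each was turned into a percentile within its list, where 100 is the highest. Exactly 3100 was given to 903 asynchronous, 306 mimosine and 906 HU peaks, and 77, 30 and 68 scored above it. Peaks at 3100 share 1 percentile within a list, and its value differs between lists with the number of such peaks. Read depth is unknown. Over whole lists the median width was 2644 bp for asynchronous, 1855 bp for mimosine and 2898 bp for HU peaks.

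Promoters of 5 genes under or beside these peaks are shown because signals reach this family through short DNA elements that lie there. The CArG box binds serum response factor, and TGACG is the core of the element bound by CREB and ATF proteins. Sequences are from RefSeq (GRCh38.p14), read in the direction of the gene, and hold the 250 bases before the start. Capitals mark CArG boxes and the core TGACG or its reverse complement CGTCA.
EGR1: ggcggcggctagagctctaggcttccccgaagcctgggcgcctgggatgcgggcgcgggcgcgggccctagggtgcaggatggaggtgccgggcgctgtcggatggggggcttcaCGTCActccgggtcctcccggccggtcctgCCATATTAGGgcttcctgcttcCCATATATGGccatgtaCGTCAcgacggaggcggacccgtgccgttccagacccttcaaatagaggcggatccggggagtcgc
EGR2: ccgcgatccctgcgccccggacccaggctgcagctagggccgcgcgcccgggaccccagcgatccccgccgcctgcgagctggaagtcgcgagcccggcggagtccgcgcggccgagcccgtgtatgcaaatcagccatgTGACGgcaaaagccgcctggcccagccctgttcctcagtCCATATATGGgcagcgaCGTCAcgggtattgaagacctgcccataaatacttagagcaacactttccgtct
FOS: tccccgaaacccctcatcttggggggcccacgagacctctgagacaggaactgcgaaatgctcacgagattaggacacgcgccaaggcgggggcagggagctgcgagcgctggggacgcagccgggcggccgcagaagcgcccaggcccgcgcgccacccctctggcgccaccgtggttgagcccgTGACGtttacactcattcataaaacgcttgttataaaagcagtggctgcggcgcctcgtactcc
JUN: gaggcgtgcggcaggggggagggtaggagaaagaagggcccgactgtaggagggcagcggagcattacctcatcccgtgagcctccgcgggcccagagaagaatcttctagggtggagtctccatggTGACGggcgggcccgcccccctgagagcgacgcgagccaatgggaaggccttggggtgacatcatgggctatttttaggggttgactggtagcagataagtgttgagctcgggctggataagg
DUSP1: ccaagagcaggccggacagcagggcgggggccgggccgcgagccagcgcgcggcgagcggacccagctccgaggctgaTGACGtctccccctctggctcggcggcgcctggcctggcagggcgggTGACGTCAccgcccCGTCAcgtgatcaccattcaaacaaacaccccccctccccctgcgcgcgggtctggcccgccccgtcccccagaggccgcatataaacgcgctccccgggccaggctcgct
RefSeq listed 11 promoters for 8 of the 10 genes; FOSL1 and IER3 were not matched. EGR2 has 3 entries, of which entry 3 in the listed order is shown, and it was not matched to the hg19 start site.

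Motifs were searched on both strands over 300 bases, the last 50 of them after the start. CArG boxes were found in EGR1, at -105 to -96 and -83 to -74, and in EGR2, at -71 to -62, counted from the start. They were in 2 of the 11 entries, against 1.29% of 35116 promoters in the table. The core TGACG was in 7 of 11 entries, 1 each of 7 genes, against 24.6% of all. DUSP1 alone held the full palindrome TGACGTCA, at -125 to -118, a motif in 1.85% of all promoters that overlaps the core. GGGCGG, the GC box, was in 7 entries (45.0% of all) and TATAAA in 4 (11.5%). TGANTCA, an AP-1 site, and GCGTGGGCG, an Egr site, were in none of the 11 entries, against 7.71% and 0.795% of all. Only exact letters in these 300 bases were counted. A variant, such as tgacatca in the JUN sequence above, or an element farther upstream was not a hit. The 11 entries had a median GC content of 64.7% and an observed over expected CpG of 0.77, against 58.7% and 0.579 over all entries. Hits are letters in this window and not binding sites.

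Of the 11 start sites, 10 had a peak within 5 kb in every list. The exception in each list was the distal ATF3 start. A peak lay over 10 start sites in asynchronous cells, 9 in HU cells and 8 in mimosine cells. With peaks within 1 kb merged, the mimosine count was 9 and the other counts were unchanged. On the chromosomes that hold the members, 6.11, 4.71 and 6.37% of the span between the first and last peak lay within 5 kb of a peak. Peaks themselves covered 1.5003, 0.9333 and 1.6736% of it in asynchronous, mimosine and HU cells. These shares are of all sequence between those peaks, and start sites in general were not analysed here. The nearest peak lay at most 457 bp from each of the 10 start sites, and the next outside the limit were an HU peak 5087 bp from DUSP1 and one 5351 bp from FOSL1.

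**Figure D1:**
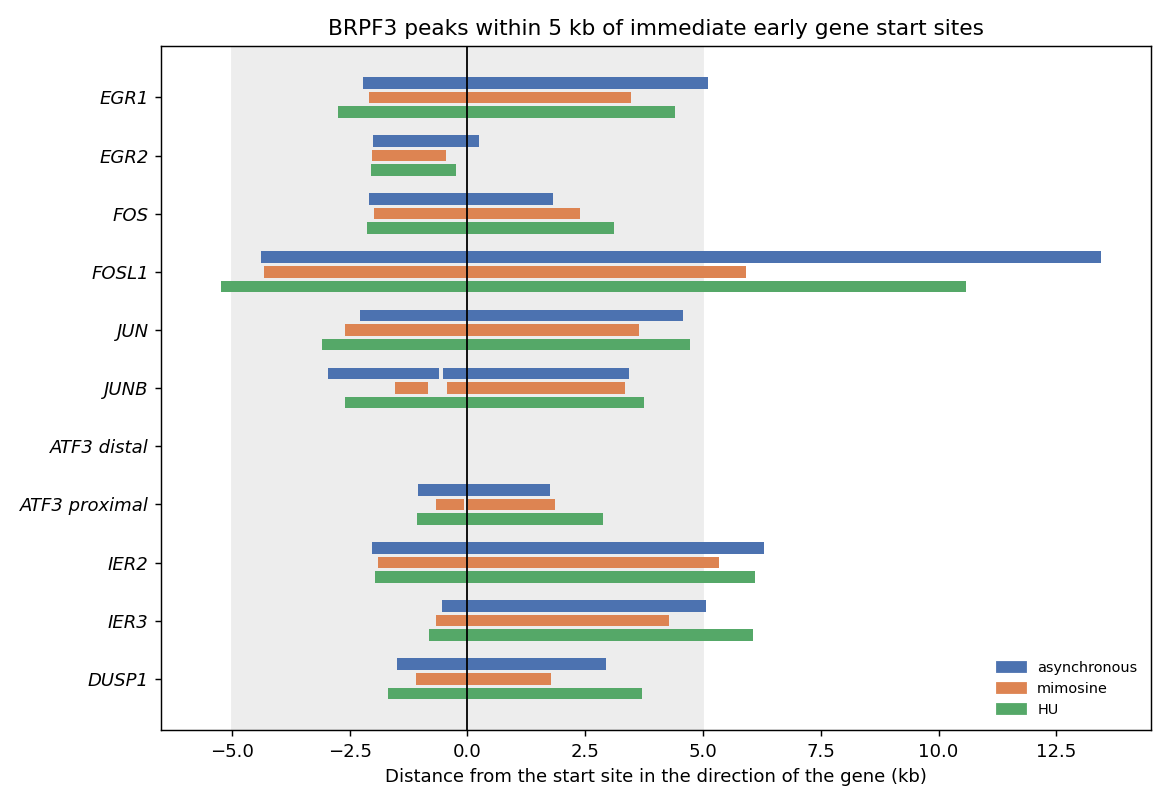
BRPF3 peaks at the 11 start sites, drawn as bars against the distance from the start in the direction of the gene (kb), with asynchronous, mimosine and HU peaks in separate rows and the 5 kb limit shaded. FOSL1 has the widest peaks, EGR2 peaks lie mostly upstream of the start, and the distal ATF3 start has none.

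At EGR1, a first responder to growth factors, the asynchronous peak spanned chr5:137798958-137806287, a width of 7330 bp. The HU peak was 7156 bp wide, and both scored 3100, at percentiles 96.0 and 96.1. Mimosine cells held 2 peaks there, 1455 and 4091 bp wide and separated by a few bases, with scores of 101.3 and 1339 (percentiles 21.7 and 87.8). Together the mimosine peaks covered 5546 bp, 0.757 of the asynchronous length. The upstream ends were close, at 2222, 2083 and 2746 bp from the start in asynchronous, mimosine and HU cells. Downstream the peaks reached 5107, 3468 and 4409 bp.

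At EGR2, which controls myelination and hindbrain patterning, the peaks were small and stood apart from those of EGR1. The asynchronous peak, chr10:64575893-64578135, was 2243 bp wide and scored 174.13 (percentile 22.1). The mimosine peak was 1566 bp wide with a score of 310.56 (percentile 53.3), and the HU peak 1807 bp with 228.19 (percentile 29.0). EGR2 was thus the 1 member in the lower 50% of the asynchronous and HU lists. The upstream ends agreed within 38 bp, at 2005, 2022 and 2043 bp before the start. Only the asynchronous peak reached over the start, by 237 bp, and the mimosine and HU peaks ended 457 and 237 bp short of it. A stronger peak lay on the downstream side in every list, 8981 bp from the start in asynchronous cells with a score of 2242 (percentile 88.3). It stood at percentile 88.2 in mimosine and 85.8 in HU cells, on the side where ADO is the next coding gene in RefSeq's order (GRCh38.p14).

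At FOS, the AP-1 partner of JUN, the asynchronous peak was chr14:75743390-75747297, 3908 bp wide with a score of 853.87. In mimosine cells the peak was 4363 bp wide with a score of 858.06, and in HU cells 5251 bp with 1355. Percentiles were 63.4, 79.4 and 77.6. FOS was the 1 start site where the mimosine peak was the wider one, at 1.12 times the asynchronous length. The upstream ends lay 2090, 1977 and 2144 bp before the start, and the downstream ends 1817, 2385 and 3106 bp after it.

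JUN, the other component of AP-1, had 1 wide peak in each list, of 6858, 6234 and 7830 bp in asynchronous, mimosine and HU cells. The asynchronous peak spanned chr1:59245215-59252072. Scores were 3100, 2733 and 3100, at percentiles 96.0, 96.3 and 96.1. The mimosine peak kept 0.909 of the asynchronous width.

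JUNB, a JUN relative that can restrain its activity, had 2 asynchronous peaks of 2354 and 3931 bp, 2 mimosine peaks of 690 and 3781 bp, and 1 HU peak of 6356 bp. The peak over the start scored 2444 in asynchronous cells, 2720 under mimosine and 3100 in HU cells, at percentiles 89.6, 96.2 and 96.1. The upstream peak scored 279.67 in asynchronous and 52.6 in mimosine cells. Asynchronous and HU cells covered nearly equal lengths, 6285 and 6356 bp, and mimosine cells 4471 bp.

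FOSL1, which encodes the AP-1 factor FRA1, had the widest peaks among the members. They measured 17832 bp in asynchronous (chr11:65654558-65672389), 10227 bp in mimosine and 15805 bp in HU cells, each at width percentile 99.7 or above. All 3 scored 3100, at percentiles 96.0, 98.4 and 96.1. Downstream they reached 13442, 5909 and 10580 bp, and upstream 4389, 4317 and 5224 bp. On the downstream side CCDC85B is the next coding gene in RefSeq's order, and how much of the width lay beyond FOSL1 was not determined. A further 2 mimosine peaks and 1 more HU peak lay in the same merged region beyond 5 kb. Summed over the region, coverage was 17832, 16773 and 19291 bp, a mimosine ratio of 0.941. Another broad peak began 5804 bp upstream in asynchronous cells, 16876 bp wide with a score of 3100, on the side where C11orf68 is the next coding gene in RefSeq's order.

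ATF3, induced by many stresses, had peaks at the proximal start only. The asynchronous peak, chr1:212780846-212783656, was 2811 bp wide with a score of 803.79, and the HU peak 3953 bp with 1247 (percentiles 61.6 and 75.5). Mimosine cells had 2 peaks of 605 and 1841 bp with scores of 50.42 and 779.73 (percentiles 0.191 and 77.4), which left the start itself uncovered by 10 bp on 1 side and 73 bp on the other. The HU length was 1.41 times the asynchronous one, more than in 92.9% of regions with a peak in every list. At the distal start, the nearest peak lay 5802 bp away in asynchronous and 5766 bp away in HU cells, with scores of 152.66 and 100.35, and 42.5 kb away in mimosine cells, where it was the peak at the proximal start.

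IER2, a small nuclear protein induced by growth factors, had nearly the same peak in each list. Widths were 8310, 7234 and 8069 bp in asynchronous (chr19:13259257-13267566), mimosine and HU cells, and every score was 3100. Upstream ends lay 2023, 1904 and 1966 bp before the start, and downstream ends 6286, 5329 and 6102 bp after it.

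At IER3, which modulates cell death signalling, width and score did not move together. The peak was 5600 bp wide in asynchronous (chr6:30707272-30712871), 4965 bp in mimosine and 6872 bp in HU cells. Scores were 3002, 281.08 and 1907, at percentiles 92.1, 50.5 and 85.4. The mimosine peak thus kept 0.887 of the asynchronous width while standing near the middle of its list. Among the 741 mimosine peaks of 4 to 6 kb, the median score was 1923, and 9 (1.21%) scored no higher than IER3. These peaks lay mainly downstream of the start, with 541, 679 and 809 bp upstream of it.

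DUSP1 had peaks of 4439 bp in asynchronous (chr5:172195265-172199703), 2860 bp in mimosine and 5382 bp in HU cells. Scores were 1808, 840.44 and 2340, at percentiles 84.2, 79.0 and 89.1. The order HU, asynchronous, mimosine held at both ends of the peak, with 1678, 1503 and 1091 bp upstream and 3703, 2935 and 1768 bp downstream. DUSP1 had the lowest mimosine to asynchronous length of the members, 0.644.

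**Figure D2:**
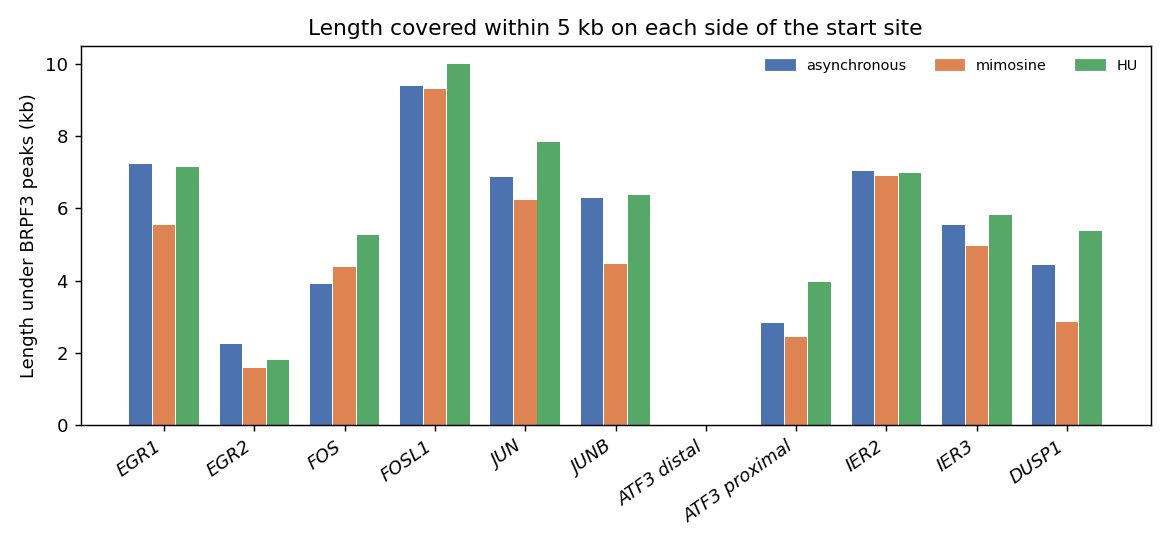
Length under BRPF3 peaks within 5 kb on each side of the 11 start sites (kb), with 1 bar per library and no error because there are no replicates. FOSL1 is covered over 9390, 9318 and 10001 bp and EGR2 over 2243, 1566 and 1807 bp in asynchronous, mimosine and HU cells.

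Across the 10 start sites with peaks, members were wide and mostly ranked high. The median width was 5020 bp in asynchronous, 4227 bp in mimosine and 6614 bp in HU cells. Peaks of 5 kb or more lay at 5, 3 and 8 of the 10 start sites, against 9.38, 3.55 and 12.9% of all peaks in those lists. Median percentiles of the score were 90.9, 83.6 and 92.6. Scores of 3100 or more were held by 4, 2 and 5 of the 10, against 7.45, 2.91 and 7.25% of all peaks. The upper 25% of the scores held 7, 8 and 9 of the 10. These shares are over all peaks of a list wherever they lie. Peaks at other start sites were not analysed, so whether width and rank are particular to these genes was not tested.

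By the length of merged regions, a measure added after seeing the data, members kept more of their length under mimosine than regions in general. For the planned measure, the width of the peak at the start, the member median was 0.784. It was not computed over all regions. Overlapping peaks of different lists were joined into regions, and the length covered in each list was compared in the 10044 merged regions that held a peak in every list. Mimosine coverage was below asynchronous coverage at 9 of the 10 member regions, against 97.9% of all. It was above at 1, FOS, against 2.09% of all. The median ratio was 0.870 at the members and 0.700 over all regions (interquartile range 0.577 to 0.807). A ratio at least 1.5 times below was found at 1 of the 10, DUSP1, against 42.4% of all. Wide regions kept more of their length in general, and 7 of the 10 members covered 4 kb or more in asynchronous cells. At 6 kb or more, the median was 0.755 over 692 regions and 0.871 at the 5 members of that size, EGR1, FOSL1, JUN, JUNB and IER2. In the class under 4 kb it was 0.683 over 7501 regions, and the 3 members, EGR2, FOS and ATF3, had 0.698, 1.12 and 0.870. From 4 to under 6 kb it was 0.743 over 1851 regions, with IER3 at 0.887 and DUSP1 at 0.644. Thus 8 of the 10 lay above the median of their own class, a level that by definition divides each class into equal parts. Of these, EGR1 (0.757 against 0.755) and EGR2 (0.698 against 0.683) lay close to it. JUNB, at 0.711, and DUSP1 lay below. The difference was not tested, and regions at other start sites were not set apart.

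**Figure D3:**
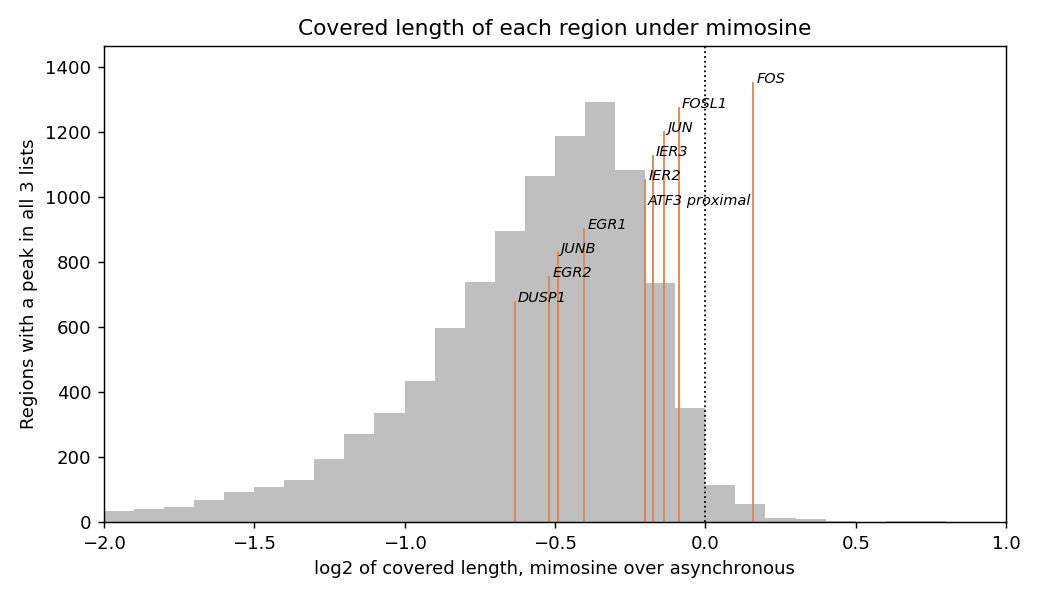
Covered length under mimosine over that in asynchronous cells (log2) for the 10044 regions with a peak in all 3 lists (grey bars, number of regions), with orange lines for the 10 member regions, whose heights only separate the names. The axis leaves out 117 regions below -2 and 1 above 1, and FOS is the member to the right of 0.

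HU coverage exceeded asynchronous coverage at 7 of the 10 member regions, against 75.1% of all, a share near the background. The exceptions were EGR1, EGR2 and IER2, at 0.976, 0.806 and 0.971. The EGR2 ratio was higher than in 2.13% of regions only. The median was 1.11 at the members and 1.09 over all regions, and none of the 10 was at least 1.5 times above, against 4.15% of all. Mimosine coverage was below HU coverage at all 10, against 99.9% of regions, with a median ratio of 0.786 at the members and 0.635 over all. It was at least 1.5 times below at 2 of the 10, DUSP1 and ATF3, against 58.5% of all.

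The peaks mostly extended farther downstream of the start than upstream of it. Ends were measured at the members only, so these counts have no share over other start sites beside them. The outermost downstream end lay beyond the outermost upstream end at 8, 9 and 9 of the 10 start sites in asynchronous, mimosine and HU cells, EGR2 being an exception in each list and FOS the other in asynchronous cells. Median reach was 2057, 1941 and 2094 bp upstream and 3995, 3406 and 4082 bp downstream. From asynchronous to mimosine cells the median change was -116 bp at the upstream and -854 bp at the downstream end. The upstream end was nearer to the start at 7 of the 10 and the downstream end also at 7, while at EGR2 the downstream end went from past the start to short of it. Against HU cells the mimosine peaks were shorter at both ends at all 10, with median changes of -452 bp upstream and -981 bp downstream. Regions split into 2 or more mimosine peaks were EGR1, FOSL1, JUNB and ATF3, 4 of the 10, against 11.9% of all. In asynchronous cells only JUNB was split (2.81% of all) and in HU cells only FOSL1 (1.15%). Splits were not compared within length classes. In asynchronous cells, 5 of the 10 members covered 6 kb or more, against 692 of all 10044 regions. The ends given above count only peaks within 5 kb, which sets the FOSL1 change of -7533 bp.

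**Figure D4:**
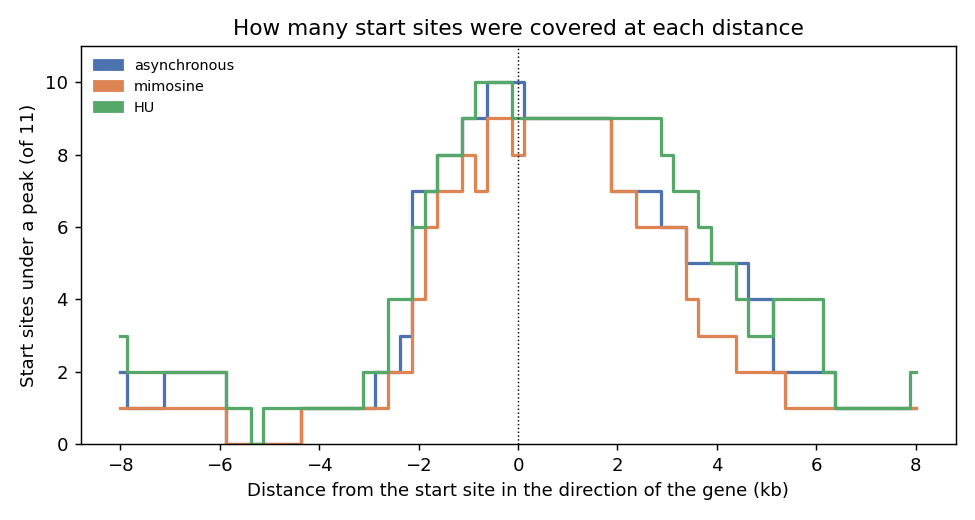
Number of the 11 start sites lying under a peak at each distance from the start in the direction of the gene (kb, in steps of 250 bp), by library. At 4 kb downstream, 5 asynchronous, 3 mimosine and 5 HU sites are covered, and at 3 kb upstream 1, 1 and 2.

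Ranks were compared over the same 10044 regions, each taken by its highest score, so that the lists had equal numbers. EGR1, FOSL1, JUN and IER2 shared percentile 94.8 in asynchronous cells, and in mimosine cells they stood at 86.2, 98.2, 95.7 and 98.2. FOSL1 and IER2 scored 3100 in every list, so their percentiles differ only through how many regions reached that score. JUN scored 3100 in asynchronous and 2733 in mimosine cells and still had the higher percentile in mimosine cells. EGR2 stood at 4.96 in asynchronous and 8.08 in HU cells, and at 47.6 under mimosine. Its difference of 42.6 points between mimosine and asynchronous cells was matched or passed by 30 of the 10044 regions (0.299%). Such a difference is not open to regions that start high. Of the 1004 regions in the lowest 10% of asynchronous scores, where EGR2 stood, 14 (1.39%) stood 40 points or more higher under mimosine. IER3 went the other way, at 89.7, 44.5 and 80.5, and 32 regions (0.319%) matched or passed its difference of -45.2 points. Of the 2009 in the highest 20% of asynchronous scores, 11 (0.548%) stood 40 points or more lower. At least 20 points above asynchronous were reached under mimosine by EGR2, FOS and ATF3, 3 of the 10 members, against 6.08% of regions, and at least 20 points below by IER3 alone, against 6.31%. These shares cover regions of every asynchronous rank. In asynchronous and mimosine cells, FOS scored 853.87 and 858.06 and ATF3 803.79 and 779.73, while the median scores of the whole lists were 562 and 277. FOS stood at 52.3, 76.7 and 70.0 and ATF3 at 49.9, 74.4 and 67.3. In HU cells no member lay 20 points above or below asynchronous cells, against 4.54 and 3.88% of regions. Both shifts were chosen from among the members for their size.

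**Figure D5:**
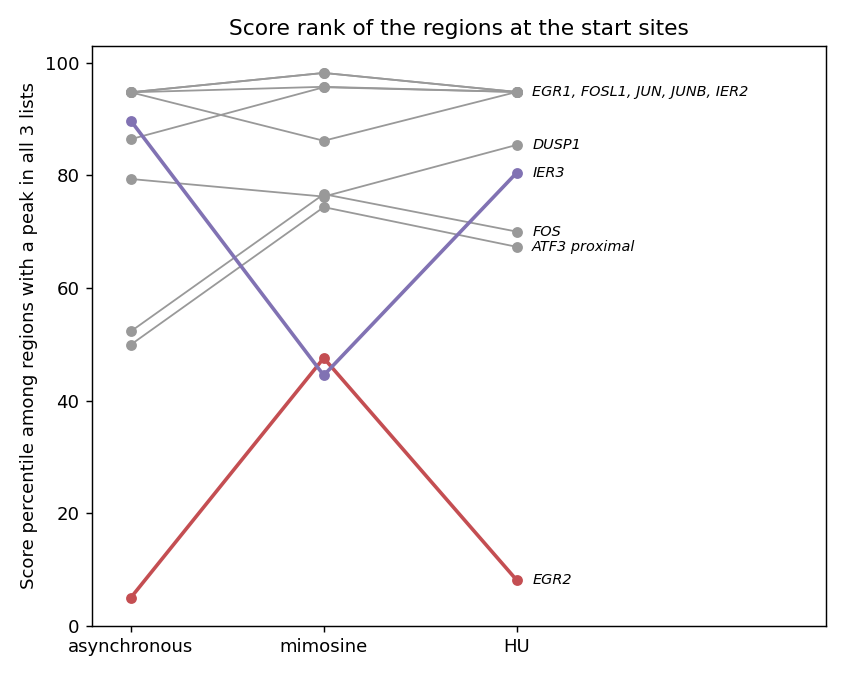
Percentile of the highest score of each member region among the 10044 regions with a peak in all 3 lists, with lines joining the values of 1 gene across the libraries. EGR2 (red) is at 4.96, 47.6 and 8.08 and IER3 (purple) at 89.7, 44.5 and 80.5, while EGR1, FOSL1, JUN, JUNB and IER2 overlap at 94.8 in HU cells.

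Outside the member regions, peaks between 5 and 50 kb from the 10 start sites with peaks numbered 25 in asynchronous cells, 14 under mimosine and 27 in HU cells. Means per start site were 2.5, 1.4 and 2.7. Counted from the centres of the 10044 regions in the same way, the means were 1.25, 1.09 and 1.27. Mimosine neighbours were thus 0.56 of the asynchronous number at the members and 0.866 over all regions, a difference that was not tested and rests on few peaks. For FOS, 1 peak 14.8 kb downstream was called in asynchronous cells (score 319.92) and 1 at 14.6 kb in HU cells (score 254.46), while in mimosine cells the next peak lay 102 kb away. Downstream of IER2, peaks 11.2 and 16.4 kb away in asynchronous cells, with scores of 197.32 and 240.59, had HU counterparts but no mimosine peak within 50 kb on that side. DUSP1 had no other peak within 50 kb in asynchronous or mimosine cells and 2 in HU cells, with scores of 50.13 and 50.63, next to the lowest score in the list. JUNB lay in the densest surroundings, with 15, 11 and 12 peaks within 100 kb, its own included, against a median of 3 around all peaks of each list.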

How the data were processed

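BRPF3 was mapped in 3 RKO libraries, with 1 IgG library as control. Per the submitters' processing notes, the tools were MACS 1.4.0, Bowtie 0.12.8, bedtools and SAMtools, and the builds hg18 and hg19, with no order or settings. The deposited files are 3 peak lists with 1 score per peak, the authors' own value from the peak caller. Positions are given as hg19, counted from 1, since 10 of 11 hg19 start sites lay within 1 kb of a peak in each list. Whether each list was called with the same settings is not given in the sources used here.

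Members, lists and tests were chosen with earlier results of these data known. Every member is named. Peaks of different lists were merged into 1 region when they overlapped by at least 1 bp. The peak at a start site was the one covering it or else the nearest. Percentiles average ties. Gene direction came from the RefSeq promoter table for 8 genes and from general knowledge for FOSL1 and IER3. Gene names of neighbours are from RefSeq GRCh38.p14, and no position was converted. The 17 other immediate early genes listed were looked up in the promoter table only, where 14 matched, since no hg19 annotation was used. Python 3.11.15, pandas 2.3.3, NumPy 2.4.6 and matplotlib 3.10.9 were used. On lists simulated from the 13160 asynchronous peaks, planted lengths and splits were recovered in 100% of the peaks kept. Simulated mimosine peaks lay inside asynchronous ones and the HU list was a copy, so only the merging step was checked.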

Additional observations from a re-analysis of the deposited data

How the results depend on the processing

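No paired analysis was possible because each condition has 1 library, and none can be left out. Counts and medians were recomputed with limits of 1 and 10 kb, scores of 100 or 200 or more, 5766 top-scoring peaks per list, peaks within 1 kb merged, start sites moved 500 bp either way, no distal ATF3 start, and other ways to choose or rank peaks. Ranking among regions held by every list and the length of merged regions were added after seeing the data. All 99 recomputed values stayed within 1.5 times the reported one, or within 10 percentile points, and no ratio crossed 1. These limits are wider than most differences between lists given above, so staying within them does not show that such differences hold. Leaving out the distal ATF3 start, which had no peak, could not change a count. The comparison of members with all regions was not recomputed. Start sites with a peak numbered 11 in asynchronous and HU cells at 10 kb. They numbered 9 in asynchronous cells at a score of 200 or more, which removes EGR2. Mimosine cells covered 8 to 10 start sites, the highest with sites moved up by 500 bp, where asynchronous and HU cells also covered 10. The median mimosine to asynchronous ratio was 0.784 for the peak at the start, 0.883 for the length within 5 kb and 0.870 for merged regions. Unknown depth limits what an absent peak means.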

Other observations

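A list of 17 other immediate early genes, among them FOSB, JUND and EGR4, had 16 RefSeq promoter entries for 14 genes. A CArG box was found in 1 of these entries, the core TGACG in 6 and the GC box GGGCGG in 12, against 1.29, 24.6 and 45.0% of all promoters. Their median GC content was 69.5%. Peaks at these genes were not analysed here.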
